A study of Mus musculus with 2 samples.

Results

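The B cell receptor and coreceptor genes examined here were Cd79a, Cd79b, Cr2, Cd81, Cd22, Cd72 and Ms4a1, 7 of the 21314 protein-coding genes that had a strand and lay on chromosomes with peaks. They were chosen by name, with earlier results of these data known. A peak was assigned to a gene when its summit lay inside the gene or within 50 kb of the 5′ end, and was called a promoter peak within 1 kb of that end. In this way 41 of the 29086 optimal ELF1 peaks were assigned. The data were ELF1 ChIP-seq peak lists from CH12.LX, a female mouse B-cell lymphoma line of strain B10.H-2aH-4bp/Wts, in 1 group of 2 biological replicates. ELF1 is an ETS family transcription factor, and ChIP-seq maps the DNA that an antibody against it brings down. The labels give no treatment and no second condition, and 1 tumour line stands for the B cell here. Peak lists hold no expression values, so the cell type could not be checked against the levels of its markers. Replicates were compared through their own relaxed lists of 300000 entries each. Signals are the authors' values on a scale that differs between lists, and read depth is unknown from these files.

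The B cell receptor is a membrane immunoglobulin held by a pair of signalling chains, CD79A and CD79B, whose cytoplasmic tyrosines are phosphorylated when antigen binds. CR2, the complement receptor also called CD21, and the tetraspanin CD81 belong to a coreceptor complex that lowers the antigen needed for a response. CD22, a lectin for sialic acid, and CD72 are inhibitory coreceptors. MS4A1, known as CD20, is a four-span membrane protein that associates with the receptor. ETS proteins recognise DNA around a GGAA core, and promoters of several B cell genes are known to combine ETS sites with sites for PAX5, EBF1 or OCT factors.

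The sequences under the promoter summits show what lay beneath each peak. The RefSeq promoter table of build GRCm38.p6 (mm10) held 5 of the 7 genes, namely Cd79a, Cd22, Cd72, Cr2 and Cd81. The 4 of these 5 with a promoter peak are printed as the summit base with 50 bases on each side, 5′ to 3′ on the strand of the gene. Capitals mark the word GGAA or, where it lies on the other strand, TTCC. In Cd79a, CTCCGG is also in capitals, which is CCGGAG read on the other strand. The windows lie at chr7:24897376-24897476 (plus strand) for Cd79a, chr1:195176744-195176844 (minus strand) for Cr2, chr7:143052679-143052779 (plus strand) for Cd81 and chr4:43454628-43454728 (minus strand) for Cd72.
Cd79a: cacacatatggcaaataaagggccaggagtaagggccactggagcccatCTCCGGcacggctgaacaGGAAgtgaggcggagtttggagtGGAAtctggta
Cr2: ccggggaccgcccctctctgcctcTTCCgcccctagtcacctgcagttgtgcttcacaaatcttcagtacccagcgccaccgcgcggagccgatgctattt
Cd81: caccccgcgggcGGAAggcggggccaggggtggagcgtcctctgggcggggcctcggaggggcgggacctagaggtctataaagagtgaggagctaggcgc
Cd72: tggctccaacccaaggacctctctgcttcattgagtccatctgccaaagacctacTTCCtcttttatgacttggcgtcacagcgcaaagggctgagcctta

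The summits at Cd72, Cd79a and Cr2 lay within 23 bases of a GGAA word. The distance was 5 bases at Cd72, 17 at Cd79a, 23 at Cr2 and 35 at Cd81. The word is common: 96.0% of the 32851 promoter windows in the table, each of 300 bases, held it on either strand. Within 50 bases of the summit it was in 92.6% of all mm9 peaks. No share over all peaks is given here for shorter distances. The Cd79a window held 2 GGAA words, 1 of them inside AGGAAG, and 1 copy of CCGGAG that began 1 base before the summit. In the Cd79a promoter, long known as the mb-1 promoter, PAX5 is known to help ETS1 bind at such a noncanonical core. The CCGGAG copy started 18 bases from the nearest GGAA. Both strands were searched, and CCGGAG was in 17.5% of the promoter windows and within 50 bases of 8.07% of all mm9 summits. Of the 35 mm9 summits assigned to the 7 genes, 4 (11.4%) had it. Those besides the Cd79a promoter had Rps19, Arhgef1 and Smarcd2 as the nearest start. These are matches of letters in a window and do not show which word was occupied.

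Members of the group differed in the CpG content of their promoters. The ratio of observed to expected CpG over the 300 bases was 0.200 for Cd22, 0.283 for Cd72, 0.314 for Cd79a, 0.581 for Cr2 and 0.713 for Cd81, against a median of 0.574 over 21044 promoter windows of protein-coding genes. The share of those windows with a lower ratio was 21.5% for Cd22, 29.9% for Cd72, 32.5% for Cd79a, 50.5% for Cr2 and 61.9% for Cd81. Among these 5 genes the one with the highest CpG ratio, Cd81, had the weakest promoter peak, and the one with the lowest, Cd22, had none. Cd79b, which had the strongest promoter peak of the group, and Ms4a1 had no window in the table. A relation of CpG content to signal was not tested.

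Of the 7 genes, 6 had an ELF1 promoter peak. Over all protein-coding genes 39.5% had a promoter peak in the optimal list. Cd79b had the strongest, with a signal of 257, followed by Cd79a (93.3), Cr2 (89.8), Ms4a1 (67.4), Cd72 (57.5) and Cd81 (31.1). Cd22 had none. Among the 8410 genes with a promoter peak, 82.8% had a weaker strongest peak than Cd79b, 48.6% a weaker one than Cd79a and 47.3% a weaker one than Cr2. The shares were 37.3% for Ms4a1, 32.0% for Cd72 and 11.8% for Cd81. The median over the bound genes was 97.1, and Cd79b alone of the 7 exceeded it. In each replicate's 29086 strongest entries the same 6 genes had a promoter entry, against 39.9% of all genes in replicate 1 and 40.2% in replicate 2. The mm9 list with all GENCODE M1 transcript starts also gave a promoter peak to these 6 and not to Cd22, against 36.8% of genes.

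**Figure D1:**
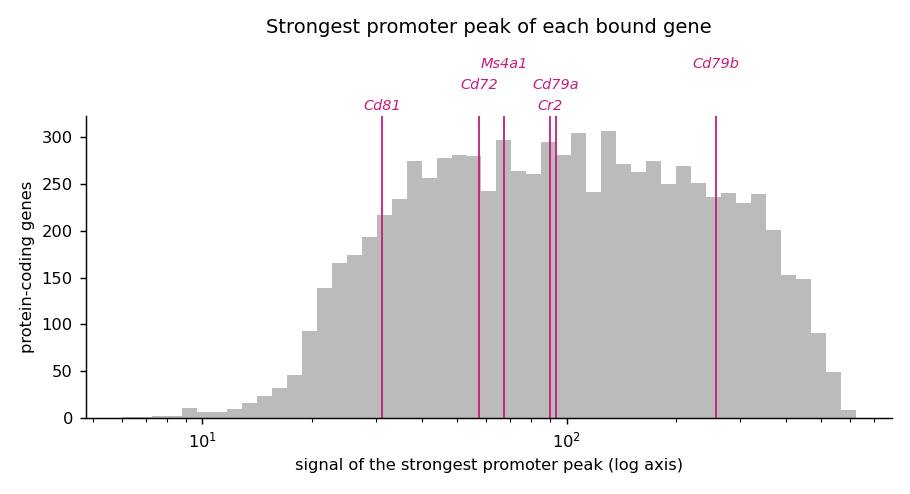
Histogram of the signal of the strongest promoter peak (x axis, log scale, caller's units) over the 8410 protein-coding genes with a promoter peak (y axis, number of genes), with a vertical line for each of the 6 receptor genes that had one. Cd79b lies at 257, and the others lie between 31.1 and 93.3, below the median of 97.1.

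The pair of signalling chain genes each had 2 promoter peaks in the optimal list, in the strongest entries of each replicate, in the conservative list and in mm9. Among the others, Ms4a1 had 2 in replicate 2 and in the conservative list, and Cd81 had 2 in the conservative list, with 1 each in the optimal list. At least 2 promoter peaks were found in 9.39% of all protein-coding genes in the optimal list. These were 2001 genes, all among the 8410 with a promoter peak. Related genes listed below shared this trait. They were Lyn, Vav1, Grb2, Ptpn6, Pik3cd, Dapp1 and Cbl of proximal signalling, Cd40 of the other receptors, and the tetraspanin genes Cd37 and Tspan32. Cd79a (chr7:24897497-24901858, plus strand) had a peak at chr7:24897244-24897607, with its summit 71 bp upstream of the 5′ end. Its signal was 42.1 in replicate 1 and 49.7 in replicate 2. The second Cd79a peak, 677 bp downstream at chr7:24897992-24898355, had 14.6 in replicate 1 and 38.1 in replicate 2, against a signal of 58.2 in the optimal list. In mm9 the matching summit lay in an intron. The ratio of replicate 2 to replicate 1 was 2.61 for this second peak and 1.33 for the median optimal peak, on scales that can differ between lists.

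At Cd79b (chr11:106311341-106314562, minus strand) the inner peak was the higher. The peak at chr11:106313674-106313916, 758 bp downstream of the 5′ end, reached 106 in replicate 1 and 153 in replicate 2. A lower peak sat at the 5′ end itself, chr11:106314403-106314766, with its summit 23 bp upstream. It had 48.6 in replicate 1, 67.9 in replicate 2 and 116 in the optimal list. Both replicates gave the inner peak the higher signal and the higher rank, 1822 against 4983 in replicate 1 and 1350 against 4698 in replicate 2. In the mm9 list the inner summit lay in an intron, 723 bp from the nearest annotated start, with 3 GGAA words within 50 bases, 1 of them inside CCGGAAG. The other mm9 summit lay 88 bp from a start, in a coding exon of a GENCODE transcript, and its window held the octamer ATGCAAAT, the word recognised by OCT factors. That window was the only 1 of the 35 member windows in mm9 with the octamer, which 1.39% of all mm9 summit windows held.

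The coreceptor genes Cr2 and Cd81 differed in the signal at their promoters, at 89.8 and 31.1 in the optimal list. Cr2 (chr1:195136811-195176880, minus strand) had a promoter peak at chr1:195176612-195176975 with a signal of 33.5 in replicate 1 and 55.0 in replicate 2. The summit lay 86 bp downstream of the outermost RefSeq 5′ end and 75 bp upstream of the start in the promoter table. In mm9 the summit fell at the same base of this promoter. Cd81 (chr7:143052750-143067930, plus strand) had a weak promoter peak at chr7:143052547-143052910, summit 21 bp upstream. It had a signal of 20.5 in replicate 2 and no entry within 100 bp in replicate 1. The nearest entry of replicate 1 lay 141 bp away with a signal of 17.2. The mm9 summit lay 53 bp from the mm10 one, with no GGAA within 50 bases, whereas the shift was 0 bp for the upstream peak of Cd79a, 0 bp for Cr2 and 1 bp for Cd72.

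Of the inhibitory coreceptor genes, Cd72 had a promoter peak and Cd22 did not. Cd72 (chr4:43447724-43455102, minus strand) had a peak at chr4:43454496-43454859 with 23.3 in replicate 1 and 34.4 in replicate 2. The summit lay 424 bp inside the outermost RefSeq 5′ end but 52 bp upstream of the promoter table start. Ms4a1 (chr19:11249679-11266149, minus strand) had a peak at chr19:11266042-11266405, summit 75 bp upstream, with 28.6 in replicate 1 and 40.6 in replicate 2. Both peaks were among the strongest entries of each replicate.

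**Figure D2:**
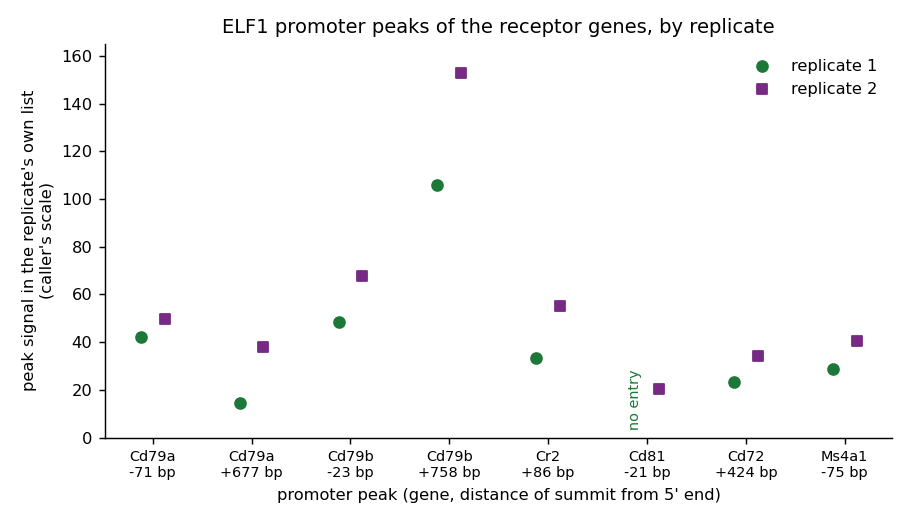
Signal of the 8 promoter peaks (y axis, caller's units, each replicate's own list) by gene and distance of the summit from the 5′ end (x axis), with circles for replicate 1 and squares for replicate 2. The inner Cd79b peak is the highest in both replicates, at 106 and 153, and the Cd81 peak has no entry within 100 bp in replicate 1.

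Peaks over 1 kb from the start were found for 6 of the 7 genes, all but Ms4a1, against 66.7% of all protein-coding genes. In the mm9 list 5 of the 7 had one, against 60.2% of genes. The optimal peaks over 1 kb away numbered 33, and their median signal was 50.8, against 39.7 over all optimal peaks. Most lay closer to the start of a neighbour. For 24 of the 33 another protein-coding gene had the nearest RefSeq 5′ end, and 11 were within 1 kb of that end. When a peak counted only for the gene with the nearest start, 9 such peaks were left, in Cd79b, Cd22 and Cd81. Assignment by distance does not show which gene a peak acts on.

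**Figure D3:**
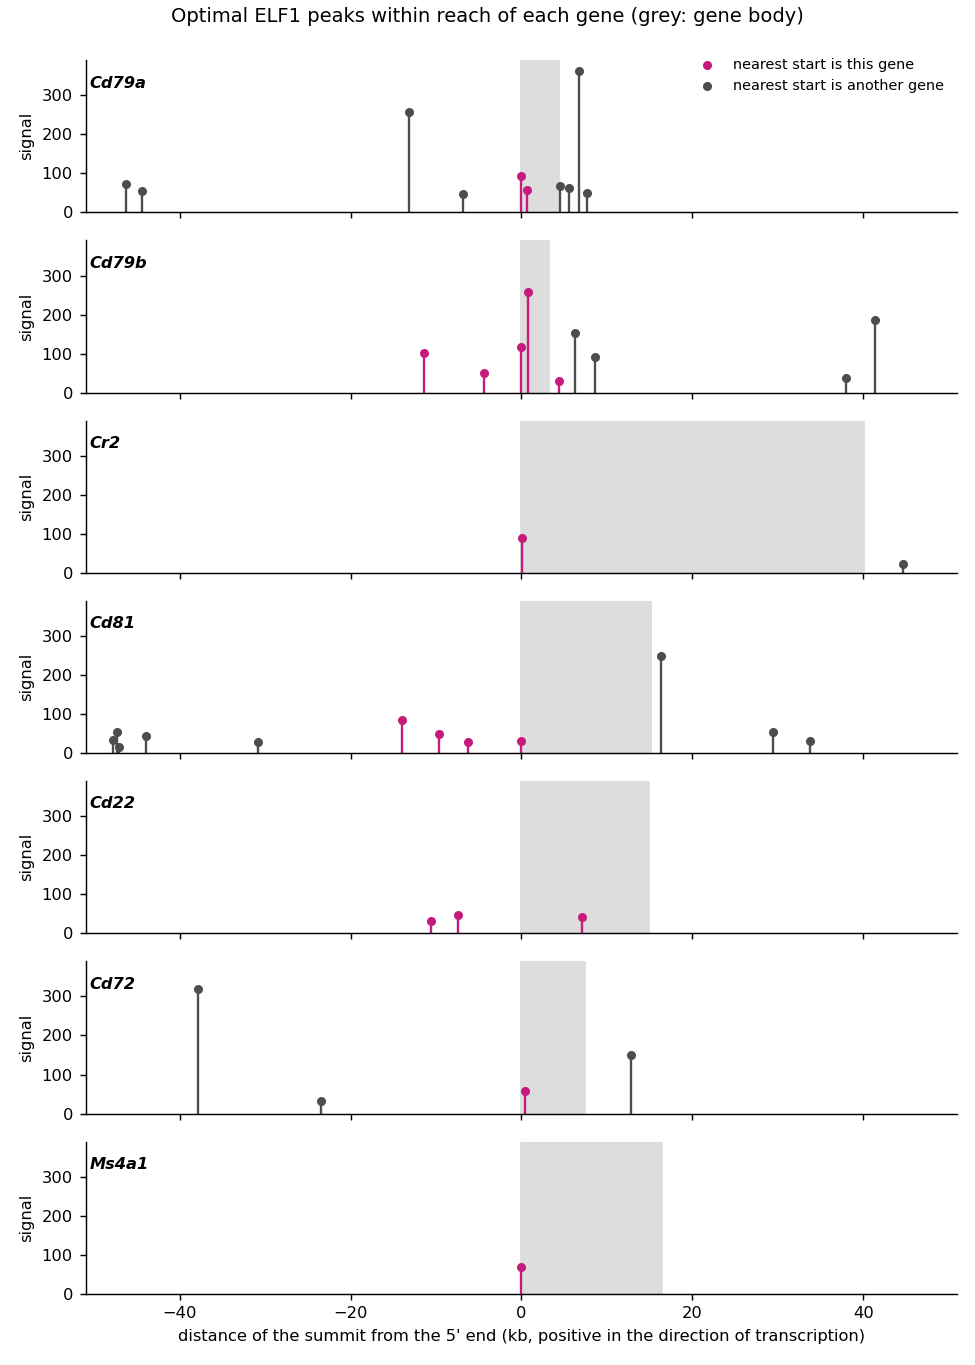
Optimal ELF1 peaks assigned to each gene, by distance of the summit from the 5′ end (x axis, kb, positive in the direction of transcription) and signal (y axis, caller's units), with the gene body in grey. Peaks with this gene as the nearest start are pink and the others dark grey, and the highest peaks near Cd79a (363), Cd72 (319) and Cd81 (248) are dark grey.

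Cd79a had 10 assigned peaks and lay in a dense stretch. At least as many were assigned to 6.09% of all genes. Within 10 kb of its 5′ end there were 7 peaks, a number reached or passed by 0.516% of genes. The 10 kb span was chosen after the values were seen, and Cd79a and Cd79b had the lowest shares of the 7 genes. That share was 11.6% for Cd81 and 52.3% each for Cd72, Cr2 and Ms4a1, with Cd22 between these values. Counting all assigned peaks, 35.6% of genes had at least as many as Cd72 and 46.3% as many as Cd22. These shares were 58.8% for Cr2 and 72.6% for Ms4a1. The strongest Cd79a peak, with a signal of 363, lay 6761 bp downstream at chr7:24904123-24904436. It was 1272 bp from the RefSeq 5′ end of Arhgef1, which encodes a RhoA exchange factor. In mm9 the matching summit lay 100 bp from a GENCODE start of Arhgef1. It had 160 in replicate 1 and 201 in replicate 2, and 97.9% of optimal peaks were weaker. A further 3 peaks near that end had signals of 50.8 to 66.8, and in mm9 these too lay within 1 kb of an Arhgef1 start. The peak 13198 bp upstream (258) lay at the promoter of the ribosomal protein gene Rps19, which was also the nearest start for the peak of 47.0 at 6815 bp upstream. A pair 44385 and 46272 bp upstream, with signals of 53.7 and 73.5, had Dmrtc2 as the nearest start in mm10 and Lypd4 in mm9.

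Cd79b had 9 assigned peaks, and 8.19% of genes had at least as many. Within 10 kb of its 5′ end there were 6, and 1.05% of genes had at least as many. Besides the double promoter peak, 3 of these lay downstream of the gene. The strongest of these, 6230 bp from the 5′ end at chr11:106308150-106308513, had a signal of 69.0 in replicate 1 and 81.9 in replicate 2. The next, at 8591 bp, had 44.5 and 48.7 in the same order. With 1 RefSeq 5′ end per gene, both were nearer to the start of Gh, the growth hormone gene, at 4629 and 2268 bp. In mm9, with all GENCODE starts, the peak 6428 bp from the outermost Cd79b start had Cd79b as the nearest start, at 6195 bp, and that at 8762 bp had Gh, at 4135 bp. The third, at 4395 bp, had 18.9 in replicate 1 and no entry within 100 bp in replicate 2, where the nearest was 154 bp away. On the other side, peaks 4348 and 11449 bp upstream, with signals of 49.9 and 101, lay within the bounds of Scn4a, a muscle sodium channel gene. The peak of 185 at 41368 bp downstream lay at the starts of Smarcd2 and Tcam1, and that of 37.1 at 37930 bp had Tcam1 as the nearest start, 3612 bp away. In mm9 a peak 38121 bp from the outermost Cd79b start lay 31 bp from a Tcam1 start.

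Cd81 had 12 assigned peaks, and 3.35% of genes had at least as many. Of those over 1 kb away, 3 had Cd81 as the nearest start. They lay upstream, at 13974, 9704 and 6269 bp. The first, at chr7:143038594-143038957, had 42.5 in replicate 1 and 41.5 in replicate 2, where the promoter peak had 20.5. The second had 19.0 and 27.8 and the third 12.2 and 13.3. In the optimal list the first was 86.1, against 31.1 at the Cd81 promoter. The strongest peak in reach, 248, lay 16373 bp downstream of the 5′ end and at the promoter of Tssc4. A group of 3 peaks over 47 kb upstream lay at the promoter of Tspan32, another tetraspanin gene, with signals of 14.5 to 54.4. Peaks 43904 and 30826 bp upstream (43.6 and 29.4) also had Tspan32 as the nearest start, and those 29425 and 33800 bp downstream (53.1 and 30.2) lay within Trpm5, a cation channel gene. In mm9 the first of these lay 253 bp from a Trpm5 start.

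Cd22 (chr7:30865404-30880342, minus strand) was reached by 3 peaks, none of them at its promoter. One lay 7073 bp inside the gene at chr7:30873087-30873450, with a signal of 11.7 in replicate 1 and 25.6 in replicate 2. In mm9 its summit fell in a coding exon. The others lay 7376 and 10581 bp upstream, at chr7:30887536-30887899 with 18.6 and 26.3 and at chr7:30890741-30891104 with 17.1 and 16.4 in the same order. All 3 had Cd22 as the nearest start, were among the strongest entries of each replicate, and had an mm9 summit within 25 bp of the matching distance. Signals in the optimal list were 40.7, 46.5 and 30.7, each below the promoter peaks of Cd79a, Cd79b, Cr2, Cd72 and Ms4a1.

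Their sequences are shown because Cd22 was the only one of the 7 genes with distant peaks alone, together with the strongest distant windows of Cd79b and Cd81 that lay over 1 kb from every start. All are from NCBIM37 (mm9), the summit base with 50 bases on each side, 5′ to 3′ on the strand of the gene, named by the distance in bp from the outermost start, with GGAA or TTCC in capitals. They lie at chr7:31658238-31658338 (minus strand), chr7:31672712-31672812 (minus), chr7:31675892-31675992 (minus), chr11:106169598-106169698 (minus) and chr7:150224631-150224731 (plus).
Cd22 7073 downstream: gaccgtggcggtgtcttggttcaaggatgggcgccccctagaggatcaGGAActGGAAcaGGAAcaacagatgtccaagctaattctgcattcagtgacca
Cd22 7401 upstream: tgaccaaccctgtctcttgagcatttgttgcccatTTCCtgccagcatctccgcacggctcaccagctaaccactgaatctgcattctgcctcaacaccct
Cd22 10581 upstream: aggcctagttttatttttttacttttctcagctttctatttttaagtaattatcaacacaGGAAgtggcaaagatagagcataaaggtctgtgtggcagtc
Cd79b 6428 downstream: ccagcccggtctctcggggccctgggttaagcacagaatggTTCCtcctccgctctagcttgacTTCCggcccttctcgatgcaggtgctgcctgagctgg
Cd81 13963 upstream: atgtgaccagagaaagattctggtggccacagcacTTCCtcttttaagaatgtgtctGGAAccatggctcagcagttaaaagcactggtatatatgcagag

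The window inside Cd22 held 3 GGAA words close together and the summit fell on one of them. The windows upstream of Cd22 held 1 each, that at 10581 bp inside AGGAAG. The Cd79b window held 2, of which 1 lay in CCGGAAG, and the Cd81 window also held 2, of which 1 lay in AGGAAG. Over the 35 mm9 peaks assigned to the 7 genes, 33 (94.3%) had GGAA within 50 bases of the summit, against 92.6% of all 18804 mm9 peaks. Many of these 35 windows had the start of another gene nearest, such as Rps19, Arhgef1, Smarcd2 or Tspan32. The region at Rps19 entered with more than 1 summit. The shares below thus describe neighbours' peaks as well. The word AGGAAG was in 42.9% of the member windows and 43.3% of all, and CCGGAAG in 11.4% of the member windows and 18.8% of all. The E box CANNTG was in 48.6% of the member windows and 35.1% of all. A joint ETS and IRF word, GGAA followed after 2 bases by GAAA, was in 2 windows, which is 5.71%, against 2.77% of all. The windows were 1 among the peaks of Cd79b, at 8762 bp, and 1 among those of Cd81, 43908 bp upstream. Their nearest starts were those of Gh and Tspan32, not of the members. The same word with a gap of 3 bases was in 0 of the 35 member windows and 1.8% of all. Words sought for EBF and AP-1 factors were also in 0 of the 35, against 0.42% and 3.37% of all. Words that hold GGAA overlap the counts of that word, and the members' share of GGAA was near that of the whole list.

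Cr2 and Cd72 had few distant peaks. The Cr2 peak 44595 bp downstream (signal 22.7) lay 715 bp from the start of Cr1l, a neighbouring complement regulator gene, and was not among the strongest entries of either replicate, at 8.47 in replicate 1 and 12.3 in replicate 2. The Cd72 peaks of 151 and 319 lay at the promoters of Tesk1 and Ccdc107, and the one of 32.6 had Sit1 as the nearest start.

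The replicates shared most of the member peaks. Of the 41, 37 (90.2%) had a summit within 100 bp among the strongest entries of both replicates, against 62.9% of all optimal peaks. In the conservative list were 40, against 78.3% of all optimal peaks. The optimal list itself derives from the replicates' lists. The median signal of the 41 was 54.4, against 39.7 over all optimal peaks, and the part of signal in this sharing was not tested. The peaks not among the strongest of both replicates were the Cd79b peak at 4395 bp, the distant Cr2 peak, the Cd81 promoter peak and the Cd81 peak 47076 bp upstream, which had 4.74 in replicate 1 and 14.5 in replicate 2. In both full lists an entry lay within 100 bp of 39 of the 41, against 85.4% of all optimal peaks. In these 39, replicate 2 was the higher in 32, and the median ratio was 1.35, against 1.33 over 24844 optimal peaks. The lowest ratio was 0.848 and the highest 3.07. Over all those optimal peaks the lower quartile of the ratio was 1.05 and the upper quartile 1.76.

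**Figure D4:**
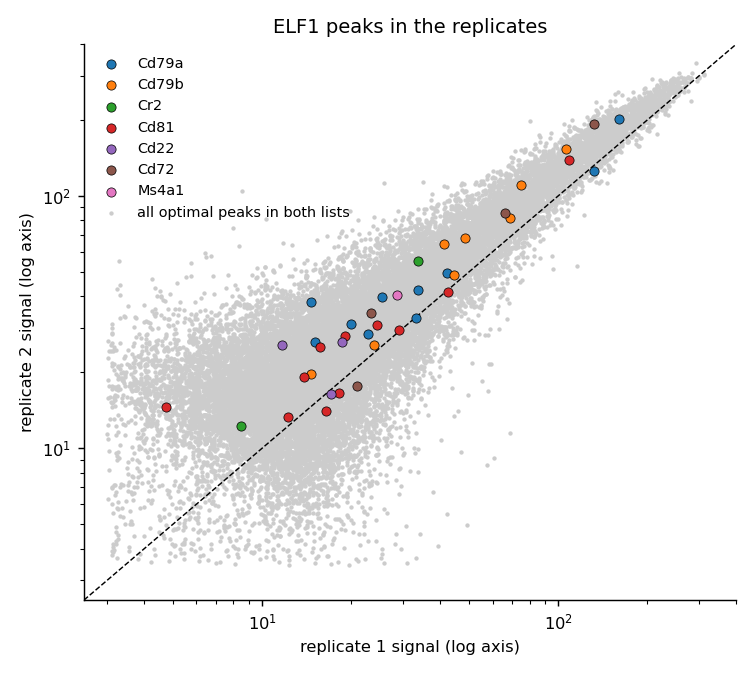
Signal in replicate 2 (y axis) against signal in replicate 1 (x axis), both on log axes in the caller's units, for member peaks found in both replicates (coloured by gene) and for 24844 optimal peaks (light grey), with the line of equal signal dashed. The 39 member peaks lie within the cloud of all peaks, 32 of them above the line.

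Other genes of the pathway were bound to differing extents at the promoter, and the members' own count was 6 of 7. Of 24 genes of proximal signalling 20 (83.3%) had a promoter peak, the strongest at Bcl10 (328), Bank1 (323) and Lyn (274). Bcl10 encodes an adaptor that leads to NF-kB, BANK1 is a scaffold and LYN the kinase that phosphorylates the CD79 chains. Of 11 genes listed as other receptors 4 (36.4%) had one, led by Cd5 (79.3), Cd40 (48.4) and Siglecg (43.0), the last a lectin of the same family as CD22. Of 11 tetraspanin genes 6 (54.5%) had one, led by Cd37 (187), Cd82 (144) and Cd53 (85.3). Of 14 other MS4A genes Ms4a7 (58.4) was the only one, and of 4 other genes of the complement receptor cluster Cr1l (22.7) was the only one. The Cr1l peak is the weak one also assigned to Cr2, 44595 bp downstream. The promoter peaks of Tspan32, among the tetraspanin genes, are likewise also assigned to Cd81. These counts stand beside the 39.5% of all protein-coding genes and were not tested.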

How the data were processed

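ELF1 ChIP-seq peak lists of 2 biological replicates of CH12.LX were analysed. The README text that accompanies the samples derives each replicate's relaxed list from that replicate's mm10 alignments and 1 further file, also used for its tracks over control. Both thresholded lists (optimal, conservative) derive from the relaxed lists of the replicates and of their pool, and the mm9 list from mm9 alignments of both replicates. Aligner and caller: not given in the sources used here. The peak signal (column 7) is used as deposited, on a scale that differs between lists and is not given, so it was ranked within a list, and ratios between replicates only describe. Column 10, taken as deposited, is the summit offset.

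Members and gene lists were chosen with earlier results of these data known. Summits are column 2 plus column 10, made 1-based. For mm10, 1 5′ end per gene came from a RefSeq table of assembly GRCm38.p6, with strand from its promoter table (17273 genes) or by symbol or synonym from GENCODE M1 (3647 and 394), so alternative starts are missed. Members were also tried with all promoter table starts. GENCODE M1 and NCBIM37 served mm9. Coordinates were not converted: for 5 genes the promoter sequence was found once by exact match in mm9, and distances from it were compared. Replicates' strongest entries were as many as the optimal list holds (29086), and summits within 100 bp counted as shared. The peak assignment was tested on simulated summits. No test between samples was possible with 1 group, so values are descriptions without p-values. Words were sought on both strands. The named genes are the 7 members and every gene with a nearer start than the member or within 1 kb of an assigned peak. The 3 most strongly bound genes of each list and the listed genes with at least 2 promoter peaks are also named. Scn4a and the listed genes with at least 2 promoter peaks were chosen after their values were seen. Python 3.11.15, pandas 2.3.3 and pysam 0.24.0 were used.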

Additional observations from a re-analysis of the deposited data

How the results depend on the processing

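The 6 members with a promoter peak stayed 6 with windows of 500 bp and 2 kb, with the conservative and mm9 lists, with all RefSeq starts (tried after the data were seen) and with either replicate left out, and were 5 in the stronger 50% of the optimal list. Leaving out 1 replicate in turn left only the other replicate's own list, which lacks the threshold of the optimal list. This gave 47 to 50 assigned peaks, against 41, and 6 members with a peak over 1 kb away. A reach of 20 kb gave 27 assigned peaks. Counting a peak only for the gene with the nearest start gave 17 peaks and 3 members with a peak over 1 kb away, against 6, because most distant peaks had a nearer start. No share over all genes is given here for the changed windows and reach, the stronger 50% or nearest starts only. Of the 35 mm9 peaks, 33 held GGAA within 50 bases of the summit, 24 within 25 bases and 34 within 100 bases. Over all mm9 peaks the share is given for 50 bases only, at 92.6%. The longer words CCGGAAG and AGGAAG were in 4 and 15. The count of 37 peaks in both replicates was 35 with summits within 50 bp and 40 within 200 bp. No paired analysis was possible because there is 1 group. Read depth is unknown from the lists, so a missing peak says only that none was listed.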

Other observations

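For the 5 genes whose promoter sequence was found in both builds, 24 of 31 optimal mm10 peaks had an mm9 summit at the same distance from the start within 100 bp. Of the 7 others, 5 were weak, with mm10 signals of 14.5 to 32.6, in the list whose median is 39.7. The other 2 were strong. The peak at the Tssc4 promoter near Cd81 (248, with 109 in replicate 1 and 139 in replicate 2) had its nearest mm9 summit 13052 bp from the matching distance. For the peak at Tesk1 near Cd72 (151, with 66.1 in replicate 1 and 85.2 in replicate 2) it was 12426 bp. Both were thus listed in each replicate on mm10 and not in the mm9 list used here. The mm9 list holds 18804 peaks and the optimal list 29086. The share of all optimal peaks with an mm9 match was not computed, since coordinates were not converted.

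The conservative list, with 27399 peaks, assigned 47 peaks to the 7 genes, and the longer optimal list of 29086 assigned 41.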
